A study of Mus musculus with 112 samples.

Results

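Mammary tumours that were rich in adipocyte messenger RNA were compared with tumours that were poor in it. Adipoq encodes adiponectin, a hormone that mature adipocytes secrete, so its signal follows the adipocyte RNA in a tumour piece. The 52 tumours used were ranked by Adipoq on Affymetrix array MOE430A (array A). The members were chosen by that signal alone: the 17 highest are called fat-rich and the 17 lowest fat-poor, and 18 tumours fell in neither group. The labels name neither group.

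All tumours, in both groups, were spontaneous mammary tumours of mice from crosses of AKXD sublines, which are recombinant inbred lines, with carriers of a PyMT transgene. PyMT is the middle T oncoprotein of polyoma virus, here driven by the MMTV promoter, which is active mainly in mammary epithelium. The whole series holds 56 tumours of 18 sublines on 112 arrays, each tumour having been hybridised to array A and to MOE430B (array B). The 3 tumours of subline 23 and replicate 3 of subline 25 were left out of the ranking. No age is given in the labels used here, and no tissue without the transgene was analysed here. Fat-rich tumours came from 13 sublines and fat-poor tumours from 12, of which 8 sublines supplied both ends. Quality values of the 2 groups overlapped: the median correlation of an array A with the others was 0.981 to 0.991 in fat-rich and 0.970 to 0.991 in fat-poor tumours, and the medians of Gapdh 3′ minus 5′ signal were -0.18 and -0.17.

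The mammary tumours of this model grow within a fat pad, in which adipocytes lie among capillaries, fibroblasts and resident macrophages, and skeletal muscle of the body wall lies next to some glands. White adipocytes take up fatty acids with lipoprotein lipase and CD36, bind them to FABP4, esterify them and keep the triglyceride in a droplet coated by perilipins and CIDEC. Brown and beige adipocytes hold many mitochondria and make heat through UCP1. The transcription factors PPARG and C/EBP alpha hold the adipocyte programme in place.

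Adipoq itself ran from 9.64 to 11.40 in the fat-rich tumours (median 10.40) and from 5.34 to 8.03 in the fat-poor tumours (median 7.32), in log2 units of RMA intensity, where 1 unit is a 2-fold change. These values chose the groups and are given without a test. The highest was tumour 2 of subline 10 and the lowest tumour 2 of subline 3, which stood 67.0-fold apart. Just inside the fat-rich limit lay tumour 1 of subline 13, at 9.64, and just outside it tumour 1 of subline 18, at 9.49. At the other end tumour 2 of subline 27, at 8.03, was the last fat-poor tumour and tumour 2 of subline 2, at 8.12, the first beyond it. Even the lowest tumour read above the controls for transcripts absent from mice, whose median signal was at most 4.88 on any of these arrays.

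**Figure D1:**
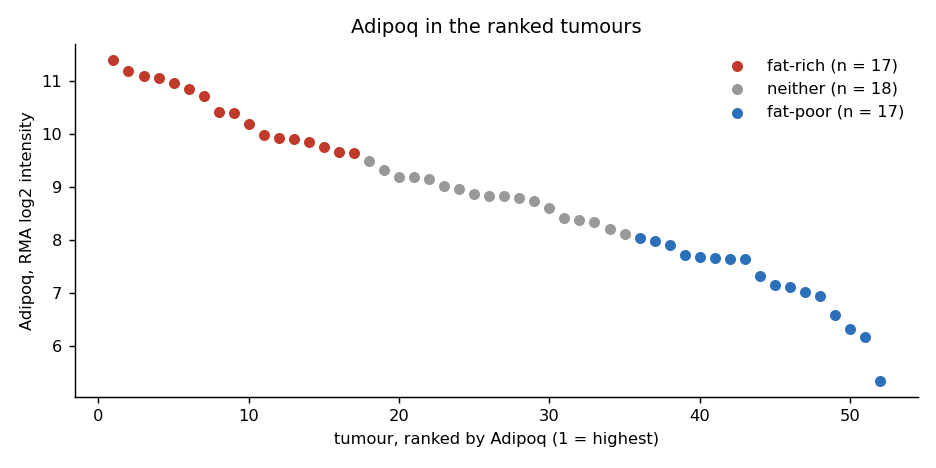
Adipoq signal (RMA log2 intensity, vertical axis) of the 52 ranked tumours, from the highest on the left to the lowest on the right, with 17 fat-rich, 18 intermediate and 17 fat-poor tumours in different colours. The values fall steadily from 11.40 to 5.34 with no gap at either limit.

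Tumours of 1 subline were often far apart. The SD of Adipoq within a subline had a median of 1.24, and the subline means had an SD of 0.83. Subline 10 had 1 tumour at 11.40 and others at 7.71 and 7.10. All 3 tumours of subline 21 were fat-poor, while subline 22 had the highest mean at 10.43. These figures describe the ranked gene and were not tested.

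Each of the other probe sets was then compared between the groups with limma, and a gene is called where its p-value, adjusted over all probe sets of the array, was under 0.05. On array A 1221 probe sets were higher in fat-rich tumours, 5.4% of the 22625 tested, and 623 were lower, 2.75% (8.15% together). With 1 probe set per gene, the brightest, 829 of 12392 genes were higher (6.69%) and 319 were lower (2.57%, together 9.26%), and the median difference over all genes was -0.01. On array B, a separate hybridisation whose values took no part in the ranking, 325 probe sets were higher (1.44%) and 76 lower (0.338%) of 22511, together 1.78%. By gene these were 211 higher (2.2%) and 16 lower (0.167%) of 9607, together 2.36%. Most differences were small, and 87 called probe sets of array A and 14 of array B differed over 2-fold. Calls leaned on some tumours: without those numbered replicate 3, which leaves fewer tumours, 397 probe sets of array A were higher and 15 lower. On array B the balance turned without replicate 2, with 297 higher and 427 lower, and leaving out 1 tumour moved the lower count between 34 and 152. Of the named genes called on array A, 23 had a probe set on array B, of which 11 were called there too and 12 were not, and none was called in opposite directions on the 2 arrays. Lipe, Abhd5, Acacb and Rxra were among the 12, with array B differences of -0.00016, -0.014, -0.039 and -0.059. Of the 126 named genes called on array A, 50 had other probe sets on that array. For 32 of the 50 another was called in the same direction, and for none in the opposite direction. Htra3 and Cavin1 had 2 others each, of which none was called. Pck1, Angptl4, Pnpla2, Rxra and Il7r were among those with 1 other, which was not called. Of the 3 others of Rgs5, 1 was called. The p-values compare the mean levels of 2 groups that Adipoq itself chose. They say whether a gene differs between the ends of that ranking, not how 2 labelled groups differ.

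Of the probe sets of array A, 20 separated the groups fully, each fat-rich tumour reading above each fat-poor tumour, which is 0.0884% of those tested. None separated them in the opposite direction, and on array B 4 did so (0.0178%), all with the fat-rich tumours above. Those of array A belonged to 15 genes with a single symbol, and 1 had no single symbol. Among these genes were Fabp4 and Car3, Cd36 and Lpl, Plin4 and Cidec, Pparg and Pck1, all in the lists described next or beside them. The others were Dpt, Igfbp6, Htra3, Bicc1, C1s1, Aoc3 and Cyp2e1, and of all 15 these last except Dpt, together with Pck1, were chosen after their values were seen.

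The genes of the white adipocyte were higher nearly throughout. Of the 20 measured on array A, 17 were higher in fat-rich tumours and none lower, with a median difference of 0.81. Their mean level per tumour, centred on the kept arrays, lay between 0.09 and 1.09 in fat-rich tumours and between -0.83 and -0.28 in fat-poor tumours. Adipoq was not among them. Adipocytes express these genes together with the ranking gene, so the direction is no independent result. The fat lists that follow share members with this list, among them Fabp4, Cidec, Pparg and Rbp4. Their counts are therefore not separate results, and the same limit holds for other genes that adipocytes express.

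Fabp4, the fatty acid carrier of adipocyte cytoplasm, read between 10.42 and 12.09 (median 11.37) in fat-rich tumours, against 7.72 to 9.76 (median 8.78) in fat-poor tumours. No tumours of the groups overlapped. With each gene taken by its brightest probe set, the difference of 2.55 ± 0.17 (SE) was the largest of those called on array A, or 5.84-fold (limma adjusted p = 1.11e-12). Car3, a carbonic anhydrase that is abundant in fat and in slow muscle, read between 11.22 and 12.85 (median 12.32) in fat-rich tumours, against 7.30 to 10.73 (median 9.96) in fat-poor tumours. It also separated the groups fully, by 2.42 ± 0.21 (limma adjusted p = 2.70e-10). The dimmer Car3 probe set of array A differed by more, 2.61 ± 0.20 (limma adjusted p = 1.07e-11).

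Cd36, the membrane transporter of long-chain fatty acids, read between 7.89 and 10.00 (median 8.81) in fat-rich tumours, against 5.97 to 7.28 (median 6.64) in fat-poor tumours, and the lowest fat-rich tumour stood above the highest fat-poor one. It was higher by 2.26 ± 0.18 (limma adjusted p = 2.83e-11). Lpl, which frees fatty acids from circulating lipoproteins, read between 10.29 and 12.10 (median 10.97) in fat-rich tumours, against 8.59 to 9.95 (median 9.17) in fat-poor tumours. Its difference was 1.90 ± 0.17 (limma adjusted p = 4.58e-10), again with no overlap.

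The droplet proteins differed among themselves. Cidec, which fuses lipid droplets, read between 6.62 and 8.85 (median 7.35) in fat-rich tumours, against 5.51 to 6.31 (median 5.76) in fat-poor tumours, a difference of 1.58 ± 0.17 without overlap (limma adjusted p = 5.47e-08). Plin4, a perilipin of growing droplets, was higher by 1.52 ± 0.15 (limma adjusted p = 1.53e-08), also without overlap. Plin5, the perilipin of oxidative tissues, was higher by only 0.32 (limma adjusted p = 0.00196). Plin2, which coats droplets in most cell types and milk fat globules too, read between 12.02 and 12.93 (median 12.58) in fat-rich tumours, against 11.93 to 13.05 (median 12.31) in fat-poor tumours. The groups overlapped almost wholly, and its difference of 0.19 ± 0.10 did not pass (limma adjusted p = 0.259).

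Of the 17 genes of lipid droplets and lipolysis measured on array A, 10 were higher and none lower (median difference 0.44), with 5 higher without the tumours numbered replicate 3 and 6 with subline as a block. The 3 lipases of the pathway were higher: Lipe, hormone-sensitive lipase, by 0.92 ± 0.10 (limma adjusted p = 4.00e-08), Pnpla2, which removes the first fatty acid, by 0.50 ± 0.09 (limma adjusted p = 0.000159), and Mgll, which removes the last, by 0.44 ± 0.10 (limma adjusted p = 0.00209). Abhd5, the coactivator of Pnpla2, was higher by 0.55 (limma adjusted p = 0.00936) and G0s2, its inhibitor, by 0.61 (limma adjusted p = 0.00881). On array B 3 of 7 genes of this list were higher and none lower, with a median difference of 0.02. There Pde3b, the phosphodiesterase through which insulin restrains lipolysis, was higher by 0.37 ± 0.07 (limma adjusted p = 0.00131) and Prkar2b, a regulatory subunit of protein kinase A, by 0.47 ± 0.10 (limma adjusted p = 0.00397).

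Of 16 genes of fatty acid uptake and triglyceride synthesis, 9 were higher and 2 lower, the lower ones being lost without the tumours numbered replicate 3. Dgat2, which makes triglyceride in the last step, read between 8.68 and 10.70 (median 9.70) in fat-rich tumours, against 8.33 to 8.87 (median 8.50) in fat-poor tumours. Apart from 2 fat-rich tumours, all fat-rich tumours lay above the highest fat-poor tumour, and the difference was 1.13 ± 0.14 (limma adjusted p = 6.63e-07). Gpd1 and Gpam, which supply and acylate the glycerol backbone, were higher by 0.93 and 0.48, and Agpat2 on array B by 0.67 ± 0.11 (limma adjusted p = 0.000373). These 3 were chosen after their values were seen. Pck1, which feeds glyceride synthesis in fat, had a fat-poor mean under the absent-control level on array A. There it read between 5.42 and 8.95 (median 6.31) in fat-rich tumours, against 4.59 to 5.12 (median 4.83) in fat-poor tumours, so no fold is given (limma adjusted p = 1.14e-06). On its array B probe set it was higher by 1.33 ± 0.18, or 2.52-fold, with no overlap (limma adjusted p = 8.80e-06). Its other array A probe set differed by -0.058 ± 0.05 and did not pass (limma adjusted p = 0.566). On array B 3 of 8 genes of this list were higher and none lower.

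Fabp5 went the other way from Fabp4. This fatty acid-binding protein of epithelia and macrophages read between 10.49 and 11.54 (median 11.15) in fat-rich tumours, against 11.07 to 12.42 (median 11.57) in fat-poor tumours, so that the ranges overlapped with the fat-rich tumours at the lower end. The difference was -0.54 ± 0.11 (limma adjusted p = 0.000616). The desaturases were split likewise on their brightest probe sets. Scd1, the form that dominates in adipocytes and liver, was higher by 0.47 ± 0.12 (limma adjusted p = 0.0133). Scd2, the form of most other tissues, was lower at -0.22 ± 0.06 (limma adjusted p = 0.0164). The other array A probe set of Scd1 and the 2 others of Scd2 were not called. Fabp5, Scd1 and Scd2 were chosen after their values were seen. Of the 17 genes of fatty acid synthesis and desaturation 8 were higher and 2 lower, with a median of 0.23. The count was 1 higher and none lower without the tumours numbered replicate 3, 2 higher with subline as a block, none with the muscle level in the fit, and 5 higher without replicate 3 of subline 22 alone. Fasn, the fatty acid synthase, was higher by 0.70 ± 0.12 (limma adjusted p = 0.000152) and Acacb, which makes the malonyl-CoA that restrains oxidation, by 0.62 ± 0.12 (limma adjusted p = 0.000738). Mlxipl, the carbohydrate-sensing factor of lipogenesis, was higher by 0.35 (limma adjusted p = 0.000822) and Thrsp, a lipogenic regulator, by 0.45 (limma adjusted p = 0.00954).

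Of the hormones and secreted factors of fat, 7 of 18 were higher and 1 lower on array A. Retn, resistin, read between 8.52 and 10.20 (median 9.25) in fat-rich tumours, against 7.91 to 8.76 (median 8.27) in fat-poor tumours, and 14 fat-rich tumours lay above every fat-poor tumour (difference 1.03 ± 0.13, limma adjusted p = 7.17e-07). Rbp4, the carrier of retinol, was higher by 1.28 ± 0.16 (limma adjusted p = 7.11e-07) and Angptl4, an inhibitor of lipoprotein lipase, by 1.02 ± 0.17 (limma adjusted p = 6.72e-05). Retnla, a small secreted protein of the resistin family made by fat and by alternatively activated macrophages, read between 9.49 and 11.44 (median 11.05) in fat-rich tumours, against 7.45 to 10.34 (median 9.08) in fat-poor tumours (difference 1.80 ± 0.24, limma adjusted p = 2.67e-06). Igf1 was higher on both arrays, by 0.76 on A (limma adjusted p = 5.83e-05) and 0.77 on B (limma adjusted p = 0.000172). Nrg4, a neuregulin secreted by brown fat, was higher by 0.32 (limma adjusted p = 0.000259).

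Lep, leptin, the satiety hormone of fat, read between 5.02 and 5.87 (median 5.37) in fat-rich tumours, against 5.02 to 5.39 (median 5.19) in fat-poor tumours, and 8 fat-rich tumours lay above the highest fat-poor tumour. Its difference of 0.15 ± 0.06 missed the threshold (limma adjusted p = 0.0863). Adm, adrenomedullin, a vasodilator peptide made under low oxygen, was the 1 member that was lower, at -0.72 ± 0.19 on array A (limma adjusted p = 0.0135), while its array B probe set differed by -0.39 ± 0.13 and did not pass (limma adjusted p = 0.144).

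Among 19 adipogenic transcription factors on array A 10 were higher and none lower, by small amounts (median 0.16). On array B none of 6 passed. The higher count was 3 without the tumours numbered replicate 3, 6 with subline as a block and 1 with the muscle level in the fit. Pparg read between 6.65 and 7.77 (median 6.97) in fat-rich tumours, against 6.21 to 6.56 (median 6.38) in fat-poor tumours, with no overlap (difference 0.69 ± 0.09, limma adjusted p = 6.85e-07). Cebpa was higher by 0.57 ± 0.09 (limma adjusted p = 4.38e-05). Klf15, Ebf2, Rxra and Stat5a were higher by 0.32, 0.28, 0.26 and 0.41, with limma adjusted p between 0.000212 and 0.00697. Of the insulin response and caveolae 3 of 17 genes were higher and none lower (5 were higher without replicate 1 of subline 21). The 3 were Cav1, which forms caveolae, Cavin1, which coats them, and Slc2a4, the insulin-responsive glucose carrier. Cavin1 read between 8.06 and 9.23 (median 8.47) in fat-rich tumours, against 7.56 to 8.13 (median 7.89) in fat-poor tumours (difference 0.69 ± 0.09, limma adjusted p = 6.40e-07), Cav1 was higher by 0.92 ± 0.11 (limma adjusted p = 7.11e-07) and Slc2a4 by 0.44 ± 0.06 (limma adjusted p = 1.22e-05).

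**Figure D2:**
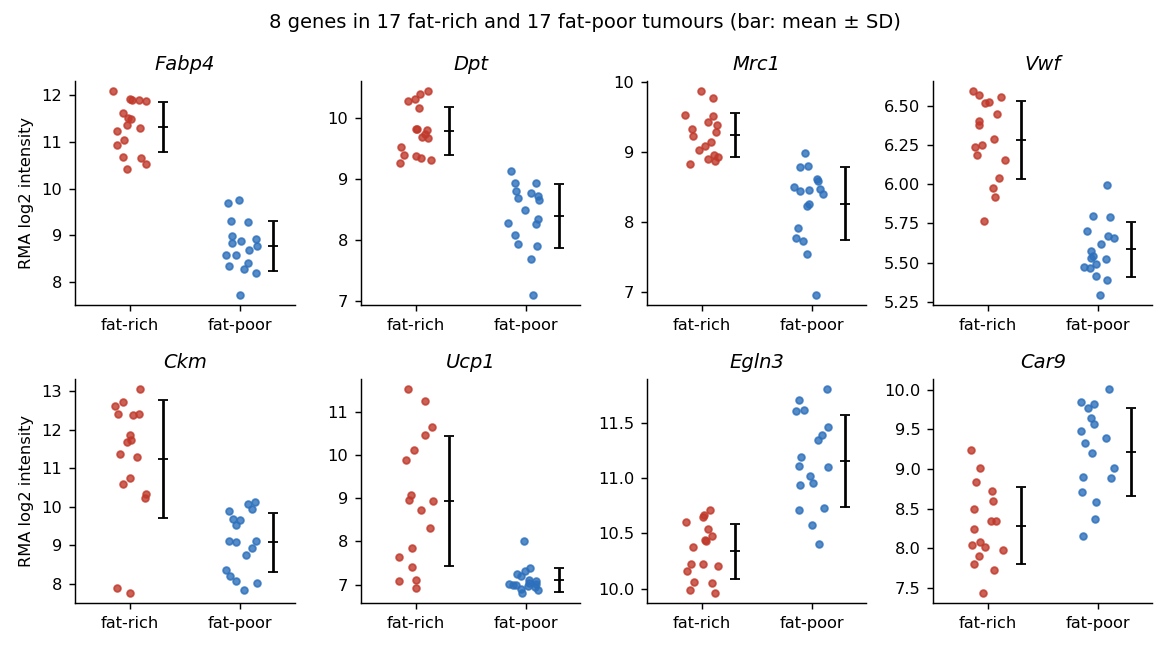
RMA log2 intensity (vertical axes, a scale of its own for each gene) of 8 genes of array A in 17 fat-rich tumours (left in each panel) and 17 fat-poor tumours (right), with points for tumours and bars for the mean ± SD. Fabp4 and Dpt do not overlap, Ckm has 2 low fat-rich tumours, Ucp1 runs from 6.91 to 11.52 in fat-rich tumours, and Egln3 and Car9 are lower in them.

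Genes of the brown and beige adipocyte were higher in part of the fat-rich tumours. Of 13 measured, 7 were higher and none lower (median 0.26). Ucp1, the uncoupling protein, read between 6.91 and 11.52 (median 8.93) in fat-rich tumours, against 6.81 to 8.01 (median 7.02) in fat-poor tumours, and 11 of 17 fat-rich tumours exceeded the highest fat-poor tumour. Replicate 3 of subline 22 had the highest value. The 3 lowest fat-rich tumours, 2 from subline 2 and 1 from subline 20, had 6.91, 7.08 and 7.12, within the fat-poor range. Replicate 3 of subline 18 at 7.41, replicate 3 of subline 28 at 7.63 and replicate 1 of subline 2 at 7.84 lay within it too. The difference was 1.82 ± 0.35, or 3.53-fold (limma adjusted p = 0.000518). Cidea, a droplet protein of brown fat and the lactating gland that is also in the white adipocyte and milk lists, was higher by 1.38 ± 0.21 (limma adjusted p = 1.65e-05). Cox8b, a cytochrome oxidase subunit of brown fat, heart and muscle, was higher by 1.23 ± 0.20 (limma adjusted p = 4.63e-05).

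Pdk4, which spares glucose by blocking pyruvate dehydrogenase in fasting muscle and fat, was higher by 1.74 ± 0.27 (limma adjusted p = 3.50e-05). It is in both the brown adipocyte and the fatty acid oxidation lists. Of 18 genes of fatty acid oxidation 10 were higher and none lower (median 0.24), with 6 without the tumours numbered replicate 3 and 5 with subline as a block. Among the 10 were Acaa2, the last step of mitochondrial beta-oxidation, by 0.37 ± 0.06 (limma adjusted p = 1.79e-05), Acadm by 0.29 (limma adjusted p = 3.65e-05) and Hadhb by 0.42 (limma adjusted p = 0.000144). Of 21 genes of the respiratory chain and citrate cycle 2 were higher and none lower (median 0.10), a share near the 6.69% of all genes. That count ran from 1 to 5 when 1 tumour was left out and was 0 with subline as a block or with the muscle level, where the median was -0.02.

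Skeletal muscle genes were higher as well. All 21 muscle genes measured on array A were higher, with a median difference of 1.92, and 9 of the 12 genes with the largest higher difference were Tnnc2, Myh4, Atp2a1, Ckm, Pvalb, Myl1, Tnnt3, Mylpf and Acta1. These encode contractile and calcium-handling proteins of skeletal muscle, and the muscle creatine kinase. Ckm read between 7.76 and 13.07 (median 11.68) in fat-rich tumours, against 7.84 to 10.13 (median 9.11) in fat-poor tumours, and 15 of 17 fat-rich tumours lay above the highest fat-poor tumour (difference 2.16 ± 0.39, limma adjusted p = 0.000274). Myh4, the fast IIB myosin, was higher by 2.37 ± 0.55 (limma adjusted p = 0.00439), and Acta1, skeletal actin, by 1.97 ± 0.61 (limma adjusted p = 0.038), a call that held in 18 of 34 fits that left out 1 tumour each. Actn3, Pygm and Ryr1 were higher by 1.52, 1.80 and 1.62. In a bulk sample, more cells of a type and more RNA per cell cannot be told apart, for muscle as for fat.

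On array B the genes with the largest higher difference were again mostly those of muscle. Neb, the giant ruler protein of the thin filament, was higher by 1.89 ± 0.34 (limma adjusted p = 0.001), Mybpc2 by 1.76 ± 0.30 (limma adjusted p = 0.000574) and Myom2 by 1.67 ± 0.34 (limma adjusted p = 0.00345). Myh4, Tmem182 and Ampd1, the muscle AMP deaminase, were higher there by 1.60, 1.14 and 1.01. Mybpc2 was chosen after its values were seen. Cilp, a matrix protein of cartilage and other connective tissue, was higher by 1.22 ± 0.17 (limma adjusted p = 1.76e-05).

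The 2 tissues did not go together in every tumour. The mean level of the muscle list ran from -2.05 to 2.53 in fat-rich tumours and from -2.08 to -0.09 in fat-poor tumours. Of the 17 fat-rich tumours 15 lay above every fat-poor tumour. The other two, both numbered replicate 3, were from sublines 2 and 20 and stood at -1.98 and -2.05, near the lowest fat-poor tumour, while their white adipocyte lists stood at 0.14 and 0.33. Both had Ckm under 8, and both were among the tumours with the lowest Ucp1.

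**Figure D3:**
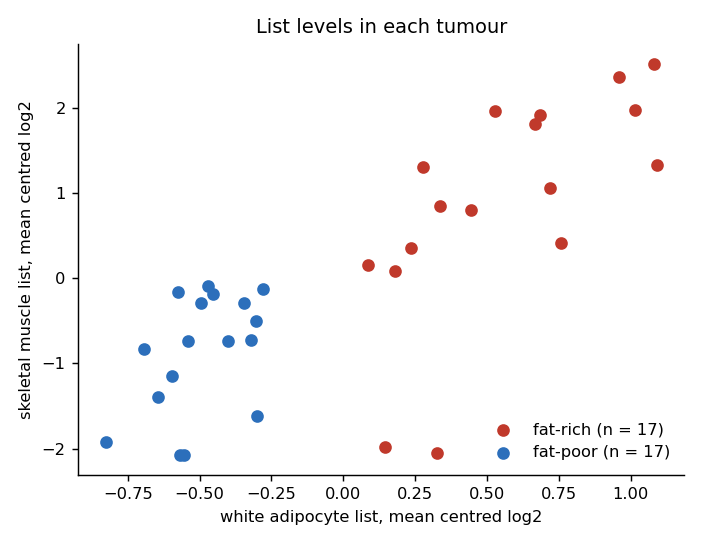
Mean centred log2 level of the skeletal muscle list (vertical axis) against that of the white adipocyte list (horizontal axis) for 17 fat-rich and 17 fat-poor tumours on array A. All fat-rich tumours lie to the right of all fat-poor tumours, which is no independent result since adipocytes express these genes together with Adipoq. Of the fat-rich tumours 15 are also above every fat-poor tumour, and 2 lie at -1.98 and -2.05.

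With the muscle level entered in the fit, 248 probe sets of array A and 19 of array B were called. The white adipocyte list had 11 higher calls of 20, the fibroblast list 13 of 21 and the macrophage list 7 of 19, while the droplet list had 3 of 17, the endothelial list 2 of 20, fatty acid oxidation 1 of 18, and the brown adipocyte and milk lists none. Fabp4 then differed by 2.17 (adjusted p = 2.46e-08), Cd36 by 1.73, Lpl by 1.41 and Dpt by 1.17 (adjusted p = 0.000845). Ucp1 differed by 0.70 (adjusted p = 0.506) and Cox8b by 0.45 (adjusted p = 0.254). The muscle level was made from the muscle genes, so nothing is read from their own values in that fit.

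**Figure D4:**
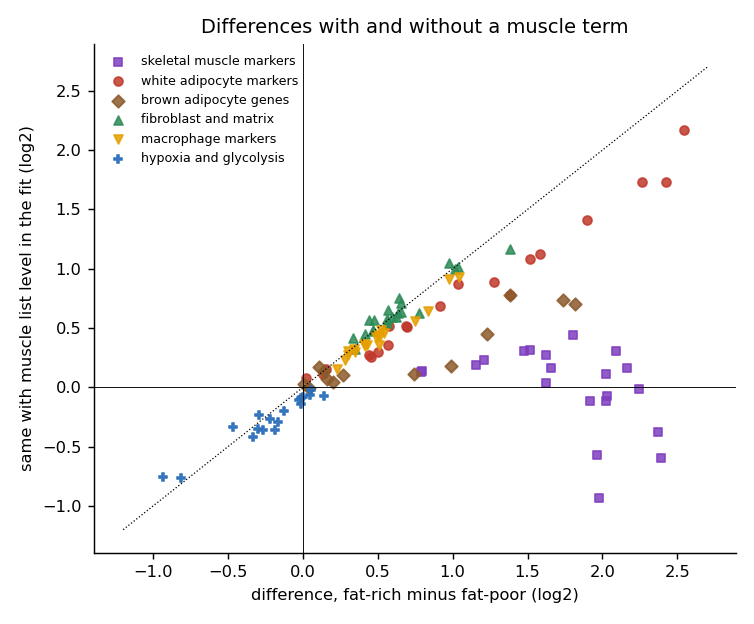
Difference between fat-rich and fat-poor tumours on array A (log2, horizontal axis) against the same difference with the muscle list level in the fit (vertical axis), 1 point per gene of 6 lists, with a dotted line of equal values. Fabp4 lies at 2.55 and 2.17 and Ucp1 at 1.82 and 0.70. Muscle genes lie on both sides of 0 (median 0.13), since by construction only their mean falls to 0.

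Connective tissue genes were higher nearly throughout. Of 21 fibroblast and matrix genes on array A 20 were higher and none lower (median 0.60), and the list's mean level did not overlap between the groups. The higher count was 14 without the tumours numbered replicate 3 and 10 with T and B cell levels in the fit. On array B 1 of 5 was higher. Dpt, dermatopontin, a matrix protein that binds decorin, read between 9.26 and 10.43 (median 9.73) in fat-rich tumours, against 7.10 to 9.13 (median 8.50) in fat-poor tumours (difference 1.39 ± 0.15, limma adjusted p = 8.12e-08). Cd34, found on adipose progenitors and on endothelium, was higher by 0.77 ± 0.09 (limma adjusted p = 6.01e-07), Col15a1, a basement membrane collagen, by 0.62 ± 0.09 (limma adjusted p = 8.42e-06) and Thy1 by 0.64 ± 0.09 (limma adjusted p = 4.97e-06). Igfbp6, a binding protein of insulin-like growth factor II, was higher by 0.96 ± 0.09 without overlap (limma adjusted p = 4.77e-09), Aoc3, the amine oxidase of adipocyte and vessel surfaces, by 0.91 (limma adjusted p = 5.19e-07), Htra3, a secreted protease, by 0.74 (limma adjusted p = 1.56e-06), and C1s1, a complement protease, by 0.83 (limma adjusted p = 1.00e-06). Bicc1, an RNA-binding protein, was higher by 0.61 (limma adjusted p = 5.82e-07), and Cyp2e1, a cytochrome P450 of liver and fat, by 1.55 (limma adjusted p = 3.50e-08).

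Macrophage genes were higher too, 17 of 19, with none lower and a median of 0.49, and 10 were higher without the tumours numbered replicate 3. Mrc1, the mannose receptor of resident macrophages, read between 8.83 and 9.86 (median 9.22) in fat-rich tumours, against 6.95 to 8.99 (median 8.44) in fat-poor tumours, and 12 fat-rich tumours lay above the highest fat-poor tumour (difference 0.98 ± 0.14, limma adjusted p = 8.64e-06). Lyve1, a hyaluronan receptor of perivascular macrophages and lymphatic endothelium, was higher by 1.04 ± 0.15 (limma adjusted p = 5.19e-06). Cd163, the haemoglobin scavenger receptor, was higher by 0.75 ± 0.11 (limma adjusted p = 1.26e-05) and Lyz2, the lysozyme of myeloid cells, by 0.84 ± 0.12 (limma adjusted p = 1.05e-05).

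Vessel genes were higher in 16 of 20 cases and lower in none, with a median of 0.27, but in 5 without the tumours numbered replicate 3. Vwf, the von Willebrand factor of endothelial cells, had a median of 6.29 in fat-rich tumours and 5.54 in fat-poor tumours, and 14 fat-rich tumours lay above the highest fat-poor tumour (difference 0.70 ± 0.07, limma adjusted p = 1.84e-08). Tek, the angiopoietin receptor, was higher by 0.44 ± 0.05 (limma adjusted p = 2.36e-07), Sox18 by 0.35 (limma adjusted p = 2.88e-05) and Pecam1 by 0.36 (limma adjusted p = 0.000398). Without the tumours numbered replicate 3 the counts that follow were 1 for pericyte, 2 for mast cell and eosinophil and 1 for T cell genes. Pericyte and smooth muscle genes were higher in 5 of 15 cases, Rgs5 among them at 0.50 ± 0.10 (limma adjusted p = 0.000514). Of 13 mast cell and eosinophil genes 5 were higher, among them the proteases Mcpt4 at 0.45 ± 0.07 (limma adjusted p = 2.94e-05) and Cpa3 at 0.45 (limma adjusted p = 0.00153), and Ccl11, an eosinophil-attracting chemokine, at 0.53 (limma adjusted p = 0.000487). T cell genes were higher in 4 of 16 cases, and in 7 when any 1 of 4 tumours was left out (replicate 3 of subline 24, 4 of subline 25, 1 of subline 13 or 2 of subline 16), with Thy1 of the fibroblast list among the 4, and Cd3d at 0.23 (limma adjusted p = 0.0215) and Il7r at 0.22 (limma adjusted p = 0.0124). None of the 14 B and plasma cell genes passed, and at most 2 did when 1 tumour was left out.

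Genes of the tumour epithelium mostly did not pass. None of the 21 luminal epithelial genes passed in either direction (median 0.05), and all 21 read above the absent controls in both groups. The mean level of that list lay between -0.08 and 0.17 in fat-rich tumours and between -0.93 and 0.13 in fat-poor tumours, the lowest value being that of replicate 1 of subline 21, whose array also had the lowest correlation with the others among the 34. Basal and myoepithelial genes were higher in 2 of 16 cases, beside 6.69% of all genes, and in 4 without replicate 1 of subline 21. That count was 0 with subline as a block, with the muscle level in the fit, or without the tumours numbered replicate 3. Epidermal genes were higher in none of 14 cases. Milk and secretion genes were higher in 6 of 18, with a wide spread. Csn2, beta-casein, read between 10.56 and 14.01 (median 12.86) in fat-rich tumours, against 5.93 to 13.77 (median 11.15) in fat-poor tumours (difference 1.61 ± 0.51, limma adjusted p = 0.0433), overlapping widely, and was chosen after its values were seen. Btn1a1, butyrophilin of the milk fat globule, was higher by 0.90 ± 0.21 (limma adjusted p = 0.00439), and Folr1, a folate receptor, by 0.66 ± 0.15 (limma adjusted p = 0.00265). Leaving out 1 tumour gave between 3 and 8 milk genes called, and 1 was called without the tumours numbered replicate 3.

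**Figure D5:**
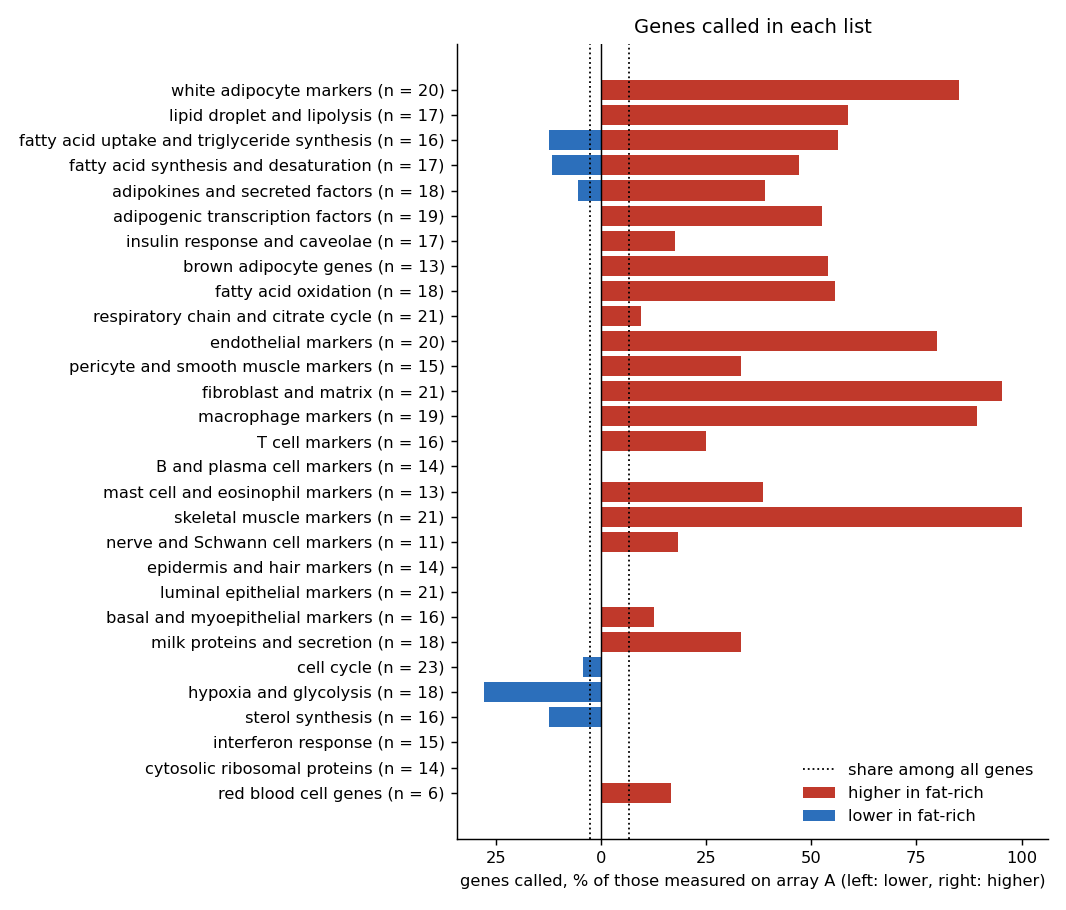
Share of the measured genes of each of 29 lists that were called on array A, higher in fat-rich tumours to the right and lower to the left (percent, horizontal axis), with dotted lines at the shares among all genes, 6.69% and 2.57%. Skeletal muscle, fibroblast, macrophage, white adipocyte and endothelial lists reach furthest to the right, and the hypoxia and glycolysis list furthest to the left.

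Some genes of low oxygen and glycolysis were lower in fat-rich tumours. Of 18 on array A none was higher and 5 were lower (median -0.18), namely Egln3, Car9, Pgam1, Vegfa and Pgk1. On array B 1 of 5 was lower, Ankrd37. Without the tumours numbered replicate 3, 1 of the 18 was lower. In cells short of oxygen the factor HIF binds DNA at the core letters ACGTG, and several of these genes are textbook targets of it. In 250 bases upstream of the annotated starts (RefSeq, GRCm38.p6), ACGTG was searched on both strands. Of the 18 genes 17 had an entry, and 12 of these held the letters, against 18.5% of 27025 genes in the table. They were present for all 5 lower genes and for 7 of the 12 that did not pass. Upstream stretches of Car9 (chr4:43506776-43507025, plus strand), Egln3 (chr12:54203875-54204124, minus strand) and Ankrd37 (chr8:45999851-46000100, minus strand) are shown since they had the largest lower differences of the list, 2 on array A and 1 on array B. They run 5′ to 3′ on the strand of the gene and end at the base before the start, and capitals mark the match, which reads CACGT where it lies on the other strand.
Car9: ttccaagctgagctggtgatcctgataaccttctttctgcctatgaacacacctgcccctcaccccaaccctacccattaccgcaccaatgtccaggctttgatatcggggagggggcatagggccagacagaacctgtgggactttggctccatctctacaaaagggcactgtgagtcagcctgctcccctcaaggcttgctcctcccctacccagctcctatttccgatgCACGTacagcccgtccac
Egln3: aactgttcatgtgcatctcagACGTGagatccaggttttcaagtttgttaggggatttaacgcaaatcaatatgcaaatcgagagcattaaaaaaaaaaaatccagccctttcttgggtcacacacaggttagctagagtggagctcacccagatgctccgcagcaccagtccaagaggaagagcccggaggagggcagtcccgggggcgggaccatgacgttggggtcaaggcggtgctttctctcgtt
Ankrd37: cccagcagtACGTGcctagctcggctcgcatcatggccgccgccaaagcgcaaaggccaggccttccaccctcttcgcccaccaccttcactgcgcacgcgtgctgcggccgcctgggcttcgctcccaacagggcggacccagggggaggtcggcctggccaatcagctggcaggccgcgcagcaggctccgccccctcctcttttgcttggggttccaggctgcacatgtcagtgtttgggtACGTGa
A match is a description of these letters and shows no binding.

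Egln3, a prolyl hydroxylase that HIF induces and that marks HIF for breakdown, read between 9.96 and 10.71 (median 10.38) in fat-rich tumours, against 10.40 to 11.81 (median 11.11) in fat-poor tumours. The ranges met only between 10.40 and 10.71, and the difference was -0.82 ± 0.11 (limma adjusted p = 3.65e-06). With the muscle level in the fit it was -0.76 (adjusted p = 0.00411). Car9, a membrane carbonic anhydrase used as a histological mark of hypoxia, read between 7.44 and 9.24 (median 8.24) in fat-rich tumours, against 8.15 to 10.01 (median 9.33) in fat-poor tumours (difference -0.94 ± 0.17, limma adjusted p = 0.000239). Vegfa, the vessel growth factor, differed by -0.47 ± 0.12 (limma adjusted p = 0.0104), Pgam1 by -0.33 ± 0.07 (limma adjusted p = 0.00227) and Pgk1, chosen after its values were seen, by -0.27 ± 0.08 (limma adjusted p = 0.0216), both enzymes of glycolysis, and Ankrd37 on array B by -0.45 ± 0.10 (limma adjusted p = 0.00914). In the 8 sublines with tumours at both ends, the mean level of the list was lower on the fat-rich side in 8 of 8.

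The other genes with the largest lower differences were of several kinds. A2m, alpha-2-macroglobulin, a broad protease inhibitor, read between 6.01 and 8.41 (median 6.82) in fat-rich tumours, against 6.47 to 10.27 (median 8.36) in fat-poor tumours (difference -1.16 ± 0.32, limma adjusted p = 0.0176). Dsp, desmoplakin of the desmosome, was lower at -1.02 ± 0.23 (limma adjusted p = 0.00272) and S100a14, a calcium-binding protein of epithelia, at -0.73 ± 0.18 (limma adjusted p = 0.00765). Igfbp3, the main carrier of insulin-like growth factors, was lower on both arrays, at -0.93 ± 0.17 on A (limma adjusted p = 0.000269) and -0.82 ± 0.17 on B (limma adjusted p = 0.00325). Col11a1, a fibrillar collagen of cartilage and of activated fibroblasts, was at -0.76 ± 0.22 (limma adjusted p = 0.0279). Slc6a15, a neutral amino acid carrier, was at -0.75 (limma adjusted p = 0.0419), Kcne3, a potassium channel subunit, at -0.73 (limma adjusted p = 0.000944), Tbx15, a T-box factor, at -0.69 (limma adjusted p = 0.033) and Fbp1, of gluconeogenesis, at -0.66 (limma adjusted p = 0.0172).

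On array B the lower genes were led by Col25a1, a transmembrane collagen, at -1.06 ± 0.28 (limma adjusted p = 0.0399). After Igfbp3 came St8sia6, a sialyltransferase, at -0.62, Slc38a1, a glutamine carrier, at -0.61, Rif1, of replication timing, at -0.57, Etnk1, ethanolamine kinase, at -0.54 and Sipa1l1, a GTPase activator, at -0.44. The limma adjusted p of these 5 lay between 0.00662 and 0.0474. On array A the probe set of Col25a1 differed by -0.14 ± 0.06 (limma adjusted p = 0.156), and those of Etnk1 and Rif1 did not pass either. Sterol synthesis genes were lower in 2 of 16 cases, Sqle at -0.31 ± 0.08 (limma adjusted p = 0.00602) and Sc5d at -0.25 ± 0.06 (limma adjusted p = 0.00351). Cell cycle genes were lower in 1 of 23, Top2a at -0.32 ± 0.10 (limma adjusted p = 0.0378), beside 2.57% of all genes. The other array A probe sets of Sc5d and Top2a were not called. On array B Sc5d differed by 0.11 and Top2a by -0.11, and neither passed. The list counts depended on replicate 1 of subline 21, without which 5 sterol and 6 cell cycle genes were lower, and without all of subline 21 they were 6 and 5. They were 0 and 0 with subline as a block, with the muscle level, or without the tumours numbered replicate 3. No interferon or ribosomal protein gene passed, and of 6 red blood cell genes 1 was higher.

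The muscle promoters were searched as well, for the E-box CAGCTG, a site type that myogenic factors such as MyoD bind. Of the 21 muscle genes 17 had an upstream entry and 10 held it, against 14.7% of all genes in the table. Ckm (chr7:19410844-19411093, plus strand) and Myl1 (chr1:66945057-66945306, minus strand) are shown as examples among the 9 with the largest differences, with the E-box in capitals. The letters of this E-box and of ACGTG cannot overlap, and CAGCTG reads alike on both strands.
Ckm: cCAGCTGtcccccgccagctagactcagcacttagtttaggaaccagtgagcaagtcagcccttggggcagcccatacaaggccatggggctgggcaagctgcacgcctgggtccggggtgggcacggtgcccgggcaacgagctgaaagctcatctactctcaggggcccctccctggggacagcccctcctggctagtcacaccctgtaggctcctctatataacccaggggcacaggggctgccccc
Myl1: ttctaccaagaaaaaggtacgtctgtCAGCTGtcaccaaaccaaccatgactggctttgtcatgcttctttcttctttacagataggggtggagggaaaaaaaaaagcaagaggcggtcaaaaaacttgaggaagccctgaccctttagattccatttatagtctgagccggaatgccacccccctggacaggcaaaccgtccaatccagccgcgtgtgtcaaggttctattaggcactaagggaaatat
Of the 15 white adipocyte genes with an entry, 4 held TTGCNNAA, a form of the C/EBP site in which N is any base, against 10.8% of all genes, and 4 of the 17 muscle genes held it too. A match again shows no binding.

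Within sublines some lists kept their direction throughout. In each of the 8 sublines that had tumours at both ends, the mean level of the white adipocyte, skeletal muscle, fibroblast, macrophage, endothelial and brown adipocyte lists was higher on the fat-rich side. The median of these 8 differences was 1.07 for the white adipocyte list, 1.84 for muscle, 0.70 for fibroblasts, 0.48 for macrophages and 0.26 for endothelium. In the same 8 sublines the luminal list was higher on the fat-rich side in 5, the respiratory list in 6 and the cell cycle list in 2. With subline as a block, which rests on these 8 sublines, 522 probe sets of array A were called, 462 higher and 60 lower. That fit gave 15 higher calls in the white adipocyte list, 12 in muscle, 12 in fibroblasts, 10 in macrophages and 3 in endothelium.

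The 18 tumours in neither group took no part in the comparison and allow a separate look at which genes track Adipoq. The slopes given are log2 units per log2 unit of Adipoq, which ran from 8.12 to 9.49 there. After adjustment 13 probe sets of array A passed, 11 with a positive slope, and none of array B, where 17 of these tumours were used (2069 and 927 by limma at an unadjusted p under 0.05). They were those of Lpl and Car3 with 2 each, Fabp4, Cd36, Cidec, Plin4, Cmbl, Asb11 and 1 probe set with no single symbol, and with a negative slope Top2b, a topoisomerase, and Alcam, an adhesion molecule, named after their values were seen. Fabp4 had a slope of 1.10, and the brighter Car3 probe set one of 1.49. All points come from whole tumour pieces on array A, so the correlations are a description. By Pearson's r the 10 genes most like Adipoq over these 18 tumours were Lpl (r = 0.85), Cd36 (0.85), Fabp4 (0.84), Cmbl (0.84), Cidec (0.83), Art3 (0.82), Car3 (0.82), Plin4 (0.79), Asb11 (0.79) and Txlnb (0.78). Between fat-rich and fat-poor tumours Cmbl differed by 0.54, Art3 by 0.30, Asb11 by 0.33 and Txlnb by 0.22 (adjusted p = 9.54e-05, adjusted p = 6.47e-05, adjusted p = 0.00201 and adjusted p = 0.00645 by limma, in that order).

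By list, in the 18 tumours, all 20 white adipocyte genes had a positive slope, as did all 21 muscle genes (median slopes 0.42 and 2.12) and all 13 brown adipocyte genes (0.19). Of the 19 macrophage genes 6 had one (median -0.03), and of the 21 fibroblast genes 14 (median 0.07), beside 58.2% of all genes (median 0.02). Endothelial genes had a positive slope in 19 of 20 cases (median 0.11), and hypoxia and glycolysis genes in 5 of 18 (median -0.21). No muscle, macrophage or fibroblast gene of the lists passed on its own in these 18 tumours, and whether a slope differs from the group difference was not tested.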

How the data were processed

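Tumour RNA was hybridised to Affymetrix MOE430A and MOE430B arrays, and the deposited values are log2 intensities that the authors made with RMA, per the submitters' processing notes. Those notes give no RMA version. The 52 tumours were ranked by the Adipoq probe set with the highest mean, and the 17 highest were compared with the 17 lowest. Each array was fitted with limma 3.58.1 in R 4.3.3, without covariates, and p-values were adjusted by Benjamini-Hochberg over all non-control probe sets of that array other than Adipoq's. The number of arrays limits the precision.

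A gene is represented by its brightest probe set with 1 symbol. Of the 22626 probe sets of array A that are not controls 20380 had 1 symbol, 691 several and 1555 none, and of the 22511 of array B 14661, 245 and 7605. A list level is the mean of centred log2 values of its measured genes. The fits were run on simulated data with independent noise and planted differences. Those data held no sublines, mixed tissues or groups chosen by a gene, so they cannot show how the fits behave under these. Upstream sequences are RefSeq's (GRCm38.p6).

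Named by rule were the 12 genes of array A and 8 of array B with the largest called difference in each direction, up to 4 genes per list with the smallest p, all members of the adipocyte, droplet, adipokine and transcription factor lists, and the 10 genes most like Adipoq. Some of these are given only in counts. The members and the lists were chosen with earlier results of these data known. The labels call the tumours biological replicates of a subline, and replicate numbers only name them: nothing in the labels pairs them. Alternatives were subline, replicate number, muscle, lymphocyte and luminal levels as terms, other scalings, other group sizes and rankings, and leaving out tumours or sublines.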

Additional observations from a re-analysis of the deposited data

Results flagged for a closer look

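Among the tumours of subline 2, the only ranked subline with 4 tumours, 30 measures (Adipoq and the levels of 29 lists) were compared within the subline, and 1 stood out. Replicate 2, which fell in neither group, had a hypoxia and glycolysis list level of 0.52 on array A, while the other 3 tumours, all fat-rich, lay between -0.12 and -0.08. The gap from this tumour to the nearest of the others made up most of the range. Chance alone marks about 1 in 20 such sets of 4, so 1 among 30 measures is no more than chance alone would mark.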

How the results depend on the processing

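Called probe sets numbered 1844 on array A and 401 on array B. With subline as a fixed block they numbered 522 and 116, with the muscle level in the fit 248 and 19, with T and B cell levels 672 and 57, with Adipoq as a level over 52 tumours 2903 and 795, over the tumours in neither group 13 and 0, and ranked by white adipocyte genes 3007 and 775. Array A gave 1158 without the dimmer probe sets and 963 with all 56 tumours ranked. Leaving out single tumours or all tumours of a replicate number gave 412 to 2204 on array A and 109 to 724 on array B, the lowest without replicate 3 on both arrays; array B was highest without replicate 2, where the direction turned (297 higher, 427 lower, against 325 and 76), and fell to 233 without replicate 1. Without subline 10 the counts were 1023 and 214, and array B gave 255 without subline 22 and 258 without subline 24. Leaving out a whole subline moved the lower calls between 186 and 922 on array A and between 11 and 173 on array B. The causes were not tested. Totals with other scalings, priors, weights and group sizes stayed within 1.5 times, but the lower calls did not: array B gave 244 with 13 against 13 tumours and 25 with 26 against 26, in place of 76, and array A 1074 with array weights, in place of 623.

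With replicate number as a block, 1728 and 338 probe sets were called, of which 44 on array B were lower. The numbers do not pair tumours, and 125 of 131 named genes kept their call.

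With the muscle level in the fit, 81 of 131 named genes lost their call, and 6 muscle genes changed sign, which follows from how the level was built: Tnnc2 -0.59, Myh4 -0.38, Atp2a1 -0.014, Myl1 -0.075, Mylpf -0.12 and Acta1 -0.93. Over the tumours in neither group the slopes on array A had the other sign for Plin2 (-0.029), Retnla (-0.30), Mrc1 (-0.018), Lyz2 (-0.11), Cd163 (-0.032), Mcpt4 (-0.017), Ccl11 (-0.15), Cpa3 (-0.034) and C1s1 (-0.0091), and on array B for St8sia6 (0.28), Slc38a1 (0.0077), Rif1 (0.073) and Igf1 (-0.024).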

Other observations

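The 4 tumours left out of the ranking had Adipoq at 10.93, 7.26 and 7.99 in subline 23 and 7.37 in replicate 3 of subline 25. A few tumours carried high levels of single lists. Ucp1 was highest in 4 fat-rich tumours of sublines 22, 24 and 10, at 11.52, 11.24, 10.64 and 10.45. Replicate 3 of subline 16, a fat-poor tumour, had an epidermis and hair list level of 2.02, against at most 0.49 in any fat-rich tumour. B and plasma cell list levels reached 0.71 in fat-rich tumours and 0.19 in fat-poor tumours, though none of the 14 genes passed. In the tumours in neither group, sterol synthesis genes had a positive slope on Adipoq in 1 of 16 cases and milk and secretion genes in 17 of 18, and none of them passed.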
